A study of Homo sapiens with 6 samples.

Results

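The comparison sets side by side the H3K9me3 domains called on chromosomes 1 to 22 with the antibodies ab176916 and ab8898 in MCF10.DCIS.com cells. The autosomes were divided in 14385 bins of 200 kb, the step in which the domains were called, and 1084 bins lay in a domain of at least 1 library. A bin was counted as specific to an antibody when both of its libraries called it and neither library of the other antibody did. By this rule 35 bins differed between the antibodies, 14 specific to ab176916 (0.0973% of autosomal bins) and 21 specific to ab8898 (0.146%). Bins that touch were joined, which gave 7 segments for ab176916 and 10 for ab8898.

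MCF10.DCIS.com is a human breast epithelial line that carries oncogenic H-RAS and models ductal carcinoma in situ. Control cells carried the empty vector pSLIK-neo-EV and RAB5A cells carried pSLIK-neo-RAB5A, a doxycycline-inducible construct for the endosomal GTPase RAB5A. Both were stable lentiviral lines of this single parental line, grown as monolayers and fixed with formaldehyde. Chromatin of each treatment was precipitated with either antibody, so each antibody has 2 libraries (1 control, 1 RAB5A) and treatment was kept as the block. Nothing in the labels says whether the libraries of an antibody, or those of a treatment, came from separate cultures. The 2 input libraries were not analysed here.

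H3K9me3 is trimethylation of lysine 9 of histone H3, the mark of constitutive heterochromatin. It is bound by HP1 proteins and is laid down by the SUV39H enzymes at pericentromeric repeats and by SETDB1 at transposons and at the genes of KRAB zinc finger proteins. SETDB1 is brought to its targets by the co-repressor TRIM28. The mark forms broad domains, typically in gene-poor sequence near the nuclear lamina and over clusters of zinc finger and olfactory receptor genes. Whether another antibody against the same mark draws the same domains is the question that the pairing of the libraries allows.

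Both antibodies marked largely the same sequence. The bins that differed were on average AT-rich and gene-poor where ab176916 alone called them, and GC-rich and gene-rich where ab8898 alone did. Part of the gene content came from chromosome 19, without which the ab8898 bins held 7.63 instead of 10.5 protein-coding genes per Mb. In GC, however, the edges lay about as often above as below the next bin inside the domain. All but 1 of the 17 segments were an edge at which one antibody's domain reached farther than the other's. The exception was a whole domain over PTPRN2 on chromosome 7, called with ab8898 in both treatments and with ab176916 in neither.

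Promoters from each kind of segment are printed to show the sequence at gene starts inside it. Each window runs from 250 bases before the transcription start to 50 after it, on the gene's strand, from RefSeq (GRCh38.p14), with each CG dinucleotide in capitals. The windows are chr2:124025037-124025336 (+) for CNTNAP5 and chr21:17612852-17613151 (-) for BTG3, both in segments specific to ab176916. The windows in segments specific to ab8898 are chr1:5992376-5992675 (-) for NPHP4 and chr19:58440104-58440403 (-) for ZNF132.
CNTNAP5: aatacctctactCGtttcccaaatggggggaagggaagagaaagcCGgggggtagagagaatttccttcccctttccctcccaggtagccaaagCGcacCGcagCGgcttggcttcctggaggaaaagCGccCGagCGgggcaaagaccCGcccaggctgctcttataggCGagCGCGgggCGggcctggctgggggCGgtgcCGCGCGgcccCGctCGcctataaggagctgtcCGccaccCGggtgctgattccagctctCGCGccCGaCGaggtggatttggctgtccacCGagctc
BTG3: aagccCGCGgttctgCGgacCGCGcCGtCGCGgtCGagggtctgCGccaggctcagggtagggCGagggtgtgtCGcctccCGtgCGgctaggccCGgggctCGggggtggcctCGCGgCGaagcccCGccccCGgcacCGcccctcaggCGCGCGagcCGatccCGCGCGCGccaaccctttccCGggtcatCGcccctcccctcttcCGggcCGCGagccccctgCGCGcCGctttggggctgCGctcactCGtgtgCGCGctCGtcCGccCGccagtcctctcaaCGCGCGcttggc
NPHP4: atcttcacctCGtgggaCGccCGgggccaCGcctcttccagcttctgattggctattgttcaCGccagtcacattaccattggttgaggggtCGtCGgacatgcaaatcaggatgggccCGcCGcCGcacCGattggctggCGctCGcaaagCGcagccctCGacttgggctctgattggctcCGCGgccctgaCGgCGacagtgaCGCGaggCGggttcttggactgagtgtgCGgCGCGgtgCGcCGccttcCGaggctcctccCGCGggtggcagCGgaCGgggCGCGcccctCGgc
ZNF132: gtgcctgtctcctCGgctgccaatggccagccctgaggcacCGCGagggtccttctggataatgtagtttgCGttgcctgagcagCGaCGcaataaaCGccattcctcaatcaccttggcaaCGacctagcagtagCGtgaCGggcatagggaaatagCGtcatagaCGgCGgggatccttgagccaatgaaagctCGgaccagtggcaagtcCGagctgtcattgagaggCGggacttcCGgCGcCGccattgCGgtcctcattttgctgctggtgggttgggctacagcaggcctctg

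The CNTNAP5 window holds 26 CG dinucleotides at 65.7% GC and the BTG3 window 48 at 77.3%, against 35 at 67.7% for NPHP4 and 20 at 59% for ZNF132. A median of 14 CG dinucleotides and 58.7% GC was found over all 35116 promoter windows of the table, of which 96.0% hold at least 1. All 4 printed windows are thus richer in CG than the median window. The segment around CNTNAP5 is 37.7% GC and that around BTG3 40.6%, against 41.0% over all autosomal bins with sequence. Over the genes starting in segments specific to ab8898, 49 windows of 36 of the 43 genes were matched, with a median of 20 CG dinucleotides and a range of 2 to 57.

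The 4 lists were alike in size. With ab176916, 70 autosomal domains covered 201 Mb in control and 71 covered 201.4 Mb in RAB5A. With ab8898, 68 domains covered 195.4 Mb in control and 69 covered 198.2 Mb in RAB5A. This is 6.99% and 7.01% of the autosomes for ab176916 and 6.80% and 6.89% for ab8898. The libraries of ab8898 lay below those of ab176916 in both treatments, with a difference of -5.6 Mb in control and -3.2 Mb in RAB5A (201.2 ± 0.283 against 196.8 ± 1.98 Mb, SD, n = 2), and of -2 domains in each treatment. Without domains scored under the lower quartile of their list, the mean difference in length shrank from -4.4 to -0.6 Mb, and that in number turned from -2 to 0.5. The mean length of a domain differed little, 2.87 and 2.84 Mb with ab176916 and 2.87 Mb in both libraries of ab8898. The covered length of the antibodies did not overlap, but the exact two-sided permutation test within treatments gave p = 0.5, the smallest that its 4 arrangements can give, so this design cannot reach 0.05.

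The gene content ran the other way from the length. Protein-coding genes that overlapped a domain numbered 867 and 877 with ab176916 (control, RAB5A) and 923 and 918 with ab8898, of 19111 autosomal genes. The difference was 56 genes in control and 41 in RAB5A (872 ± 7.07 against 920.5 ± 3.54, SD, n = 2). The mean of 48.5 was 24.5 without the low-scored domains and 33 without chromosome 19. Much of it comes from the antibody-specific bins described below. In those bins lie the 41 genes that overlapped a domain with ab8898 alone in both treatments, and the 3 with ab176916 alone. Called sequence was 41.2% and 41.3% GC with ab176916 and 41.5% GC in both libraries of ab8898. It held 10.5 CpG per kb in both libraries of ab176916, 10.9 with ab8898 in control and 10.8 in RAB5A. For genes, GC and CpG alike, both libraries of ab8898 lay above both of ab176916, and the exact permutation test again gave its smallest p, 0.5. The lists hold no read depth and the study's methods state only an average over samples, so a difference in depth between the antibodies could not be measured.

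**Figure D1:**
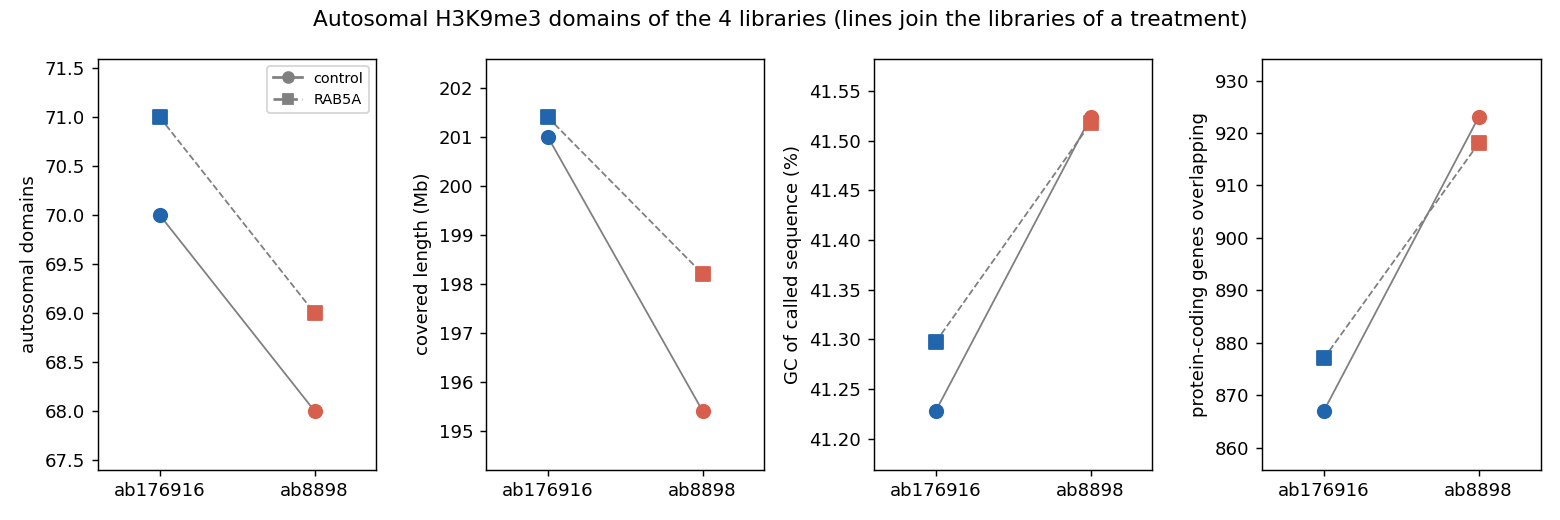
Number of autosomal domains, covered length (Mb), GC of the called sequence (%) and protein-coding genes overlapping a domain, for each library. Points are single libraries (circles control, squares RAB5A) and grey lines join the libraries of a treatment, and the axes do not start at 0. In both treatments ab8898 has fewer domains and a shorter length, and a higher GC and more genes, than ab176916.

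The overlap between libraries was about as high across antibodies as within them. The Jaccard index, which is the shared share of all sequence that a pair of libraries called, was 0.911 between treatments with ab176916 and 0.907 with ab8898. Between antibodies it was 0.897 in control and 0.910 in RAB5A. The means were 0.909 ± 0.00265 for the same antibody and 0.903 ± 0.00953 for the same treatment (SD, n = 2 pairs), a difference of 0.00546 that is smaller than the spread of the second. It was -0.0119 without the domains scored under the lower quartile of their list, and -0.00284 without chromosome 15. Libraries that shared neither reached 0.878 and 0.879. The 35 bins that followed the antibody stood beside 29 that followed the treatment, 11 called in both control libraries alone and 18 in both RAB5A libraries alone.

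All 4 libraries called 889 of the 1084 bins (82.0%), and the antibody-specific bins were 3.23% of them. Both libraries of ab176916 called 959 bins (6.67% of autosomal bins) and both of ab8898 called 936 (6.51%). The remaining discordant bins were uneven. A single ab176916 library was alone in calling 38 bins (22 control, 16 RAB5A), and a single ab8898 library in calling 10 (5 in each treatment). Of the 82 bins called in 3 libraries, an ab8898 library missed 56 (31 control, 25 RAB5A) and an ab176916 library missed 26 (14 control, 12 RAB5A). In each treatment the ab176916 library thus called more bins alone and missed fewer than the ab8898 library. The order of the specific bins, 14 for ab176916 and 21 for ab8898, was not stable. It became 22 against 21 without domains scored under the lower quartile of their list, and 14 against 12 without chromosome 15. With a single library left out, it was 39 against 26 without ab8898 control, 45 against 26 without ab8898 RAB5A, 36 against 35 without ab176916 RAB5A, and 30 against 33 without ab176916 control.

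**Figure D2:**
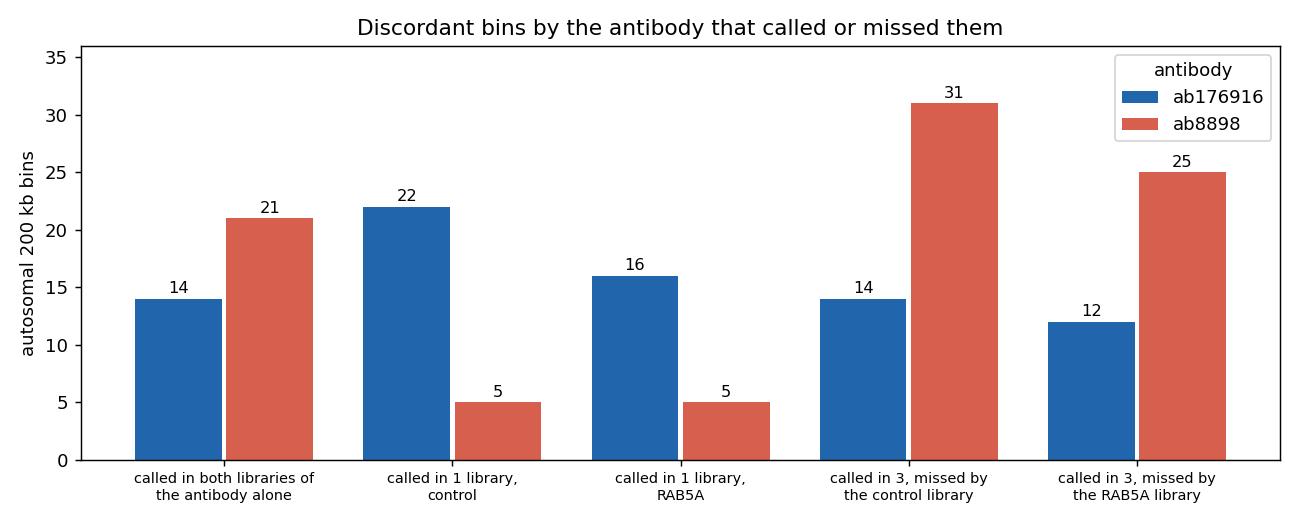
Autosomal 200 kb bins (count, from 0) on which the libraries differed, by the antibody concerned (blue ab176916, red ab8898). From left to right the pairs of bars give bins called in both libraries of that antibody alone (14 and 21), bins called in its control library alone (22 and 5) or its RAB5A library alone (16 and 5), and bins that only its control library missed (14 and 31) or only its RAB5A library missed (12 and 25).

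The segments specific to ab176916 were 7 domain edges of 0.2 to 1 Mb, 2.8 Mb in all. They held 6 protein-coding genes (0.0314% of all) and the starts of 3. The count was 11 without domains scored under the lower quartile of their list, with the chromosome 20 domain that all 4 libraries had called. It was 12 without the ab176916 RAB5A library, 14 without ab8898 control and 16 without ab8898 RAB5A. In both treatments the edge lay at the same place with ab176916, except on chromosome 11, where the domain began at 38.2 Mb in control and 38.8 Mb in RAB5A.

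The longest was chr16:64000001-65000000, the last 1 Mb of a domain of 6.2 Mb in both ab176916 libraries that was 5.2 Mb long in both ab8898 libraries. It was 37.1% GC. It held the 3′ part of CDH11 (minus strand), the gene of cadherin-11, an adhesion molecule of mesenchymal cells. The segment took in 30.8% of CDH11 with 10 of its 13 exons, and no ab8898 domain reached the gene. CDH11 was also the 1 cadherin of 23 whose overlap depended on the antibody, since 2 cadherin genes overlapped a domain with ab176916 and 1 with ab8898.

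On chromosome 2, the segment chr2:123800001-124200000 (37.7% GC) held the start and 1 of 24 exons of CNTNAP5, a neurexin-related adhesion protein of neurons. The whole gene of 896 kb lay in the domain with ab176916, and 80.5% of it, without the promoter printed above, lay in the domain with ab8898. On chromosome 21, chr21:17600001-17800000 (40.6% GC) held the start of BTG3, an antiproliferative protein of the BTG/TOB family, with 67.1% of the gene, and 36.3% of C21orf91. No ab8898 domain reached BTG3, while 63.7% of C21orf91 lay inside the ab8898 domain.

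The remaining ab176916 segments each held 1 protein-coding gene or none. On chromosome 8, chr8:47200001-47600000 (40.4% GC) ended the domain 0.4 Mb farther out and took in the start and 71.3% of SPIDR, a scaffold protein of homologous recombination that no ab8898 domain reached. The segment chr7:55600001-55800000 (43.4% GC) held 9.33% of SEPTIN14, a septin of the cytoskeleton, of which 90.7% lay inside the ab8898 domain. Segments chr11:38800001-39200000 (35.1% GC) and chr14:27800001-28000000 (34.4% GC) held no protein-coding gene. Of the 6 genes, SPIDR, CDH11 and BTG3 thus overlapped a domain with ab176916 alone, and the other 3 overlapped one with both antibodies.

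The segments specific to ab8898 were 9 edges and 1 whole domain, 0.2 to 1.4 Mb long and 4.2 Mb in all. They held 44 protein-coding genes (0.23% of all), 36 of them entirely. Of these, 41 overlapped a domain with ab8898 alone in both treatments. By density this is 10.5 genes per Mb, against 2.14 in the segments specific to ab176916. The 44 genes became 29 without chromosome 19 and 67 without the ab176916 RAB5A library. The densities were then 7.63 against 2.14 and 9.57 against 1.67 genes per Mb, and without the low-scored domains 10.0 against 2.5. The last values include domains that all 4 libraries had called, as given above.

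The whole domain was chr7:157400001-158600000, 1.2 Mb long with the same limits in both ab8898 libraries, 0.746 Mb from the end of the chromosome and 51.5% GC. It contained all 23 exons of PTPRN2, a protein of dense-core vesicles related to receptor tyrosine phosphatases. PTPRN2 spans 1049 kb and so filled most of the domain. The domain also took in 21.3% of DNAJB6, an HSP40 co-chaperone. Among the 76 domains of each ab8898 list it ranked 3 from the lowest caller's score in control and 2 in RAB5A, so it was among the lowest-scoring calls of both lists, and it was lost when domains scored under the lower quartile of their list were left out.

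The longest segment was chr15:28200001-29600000, by which the ab8898 domain ended 1.4 Mb farther out in both treatments. It was 44.2% GC and held 10 protein-coding genes. They include 57.9% of HERC2 with its start and 48 of 93 exons, a giant ubiquitin ligase of which ab176916 domains took in the other 42.1%. Next to it lay GOLGA6L24, GOLGA8F, GOLGA8G, GOLGA6L25, GOLGA8M and GOLGA6L7, golgin-like genes in segmental duplications. Then followed APBA2, a neuronal adaptor that binds the amyloid precursor protein, and 2 others, ENTREP2 and NSMCE3, the second a subunit of the SMC5-SMC6 complex.

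Toward the centromere of the same chromosome, a pair of ab8898 edges faced each other. The segment chr15:22400001-22600000 (44.6% GC) held GOLGA6L22, and chr15:23000001-23200000 (44.2% GC) held GOLGA6L1 and 70.2% of TUBGCP5, a subunit of the γ-tubulin ring complex, with its start. Both lay within 0.05 Mb of an assembly gap, at 0.0418 and 0.0269 Mb. Together the chromosome 15 segments held 8 GOLGA6L and GOLGA8 genes, all of them in bins specific to ab8898. These are near-identical copies, and reads of mapping quality below 1 had been removed, so their calls are uncertain.

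On chromosome 19, chr19:58400001-58600000 (51.9% GC) was the last full bin before the end of the chromosome, 0.0176 Mb away. There the ab8898 domain over the terminal zinc finger cluster reached 200 kb farther. It added ZNF584, ZNF132, ZNF324B, ZNF324 and ZNF446, the 5 zinc finger genes that made the list count 228 of 497 with ab8898 in both treatments and 223 with ab176916. It also added SLC27A5, a bile acid-CoA ligase, ZBTB45, a BTB zinc finger gene, and TRIM28, whose protein recruits SETDB1. The other 3 genes were CHMP2A of the ESCRT-III complex, UBE2M, a NEDD8-conjugating enzyme, and MZF1, a SCAN zinc finger gene. The promoter of ZNF132 shown above lies in this bin.

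The other chromosome 19 segment, chr19:32600001-32800000 (46.7% GC), held 96.2% of ANKRD27, an endosomal protein that binds RAB GTPases, with RGS9BP, the anchor of RGS9 in photoreceptors, NUDT19, a Nudix hydrolase, and 73.1% of TDRD12, a Tudor protein of the piRNA pathway. Here the ab176916 domain ended at 32.4 Mb in control and 32.6 Mb in RAB5A, and took in 3.76% of ANKRD27 in RAB5A alone. The ab8898 domain ended at 32.8 Mb in both.

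The segment chr16:31200001-31400000 (47.6% GC) held PYCARD, the adaptor ASC of inflammasomes, and PYDC1, a pyrin-only protein, with TRIM72, a membrane repair protein. It also held ITGAM and ITGAX and 20.1% of ITGAD, 3 integrin alpha genes of leukocytes. The rest of ITGAD, 79.9%, lay in the ab176916 domains too.

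On chromosome 1, chr1:5800001-6000000 (51.2% GC) held all 30 exons of NPHP4, nephrocystin-4 of the ciliary transition zone, and the first 8.23% of KCNAB2, a potassium channel beta subunit, without an exon of its canonical transcript. The segment chr20:43400001-43600000 (46.3% GC) held the splicing factor SRSF6, L3MBTL1, a chromatin reader with MBT repeats, the kinase SGK2, 16.1% of IFT52 of the intraflagellar transport machinery, and the unnamed genes ENSG00000288000 and ENSG00000277611.

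The segment chr2:89000001-89200000 was unlike the rest, with 39.8% GC and no protein-coding gene. It held 18 immunoglobulin kappa variable segments, 9 annotated as genes and 9 as pseudogenes. It lay 0.131 Mb from an assembly gap.

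**Figure D3:**
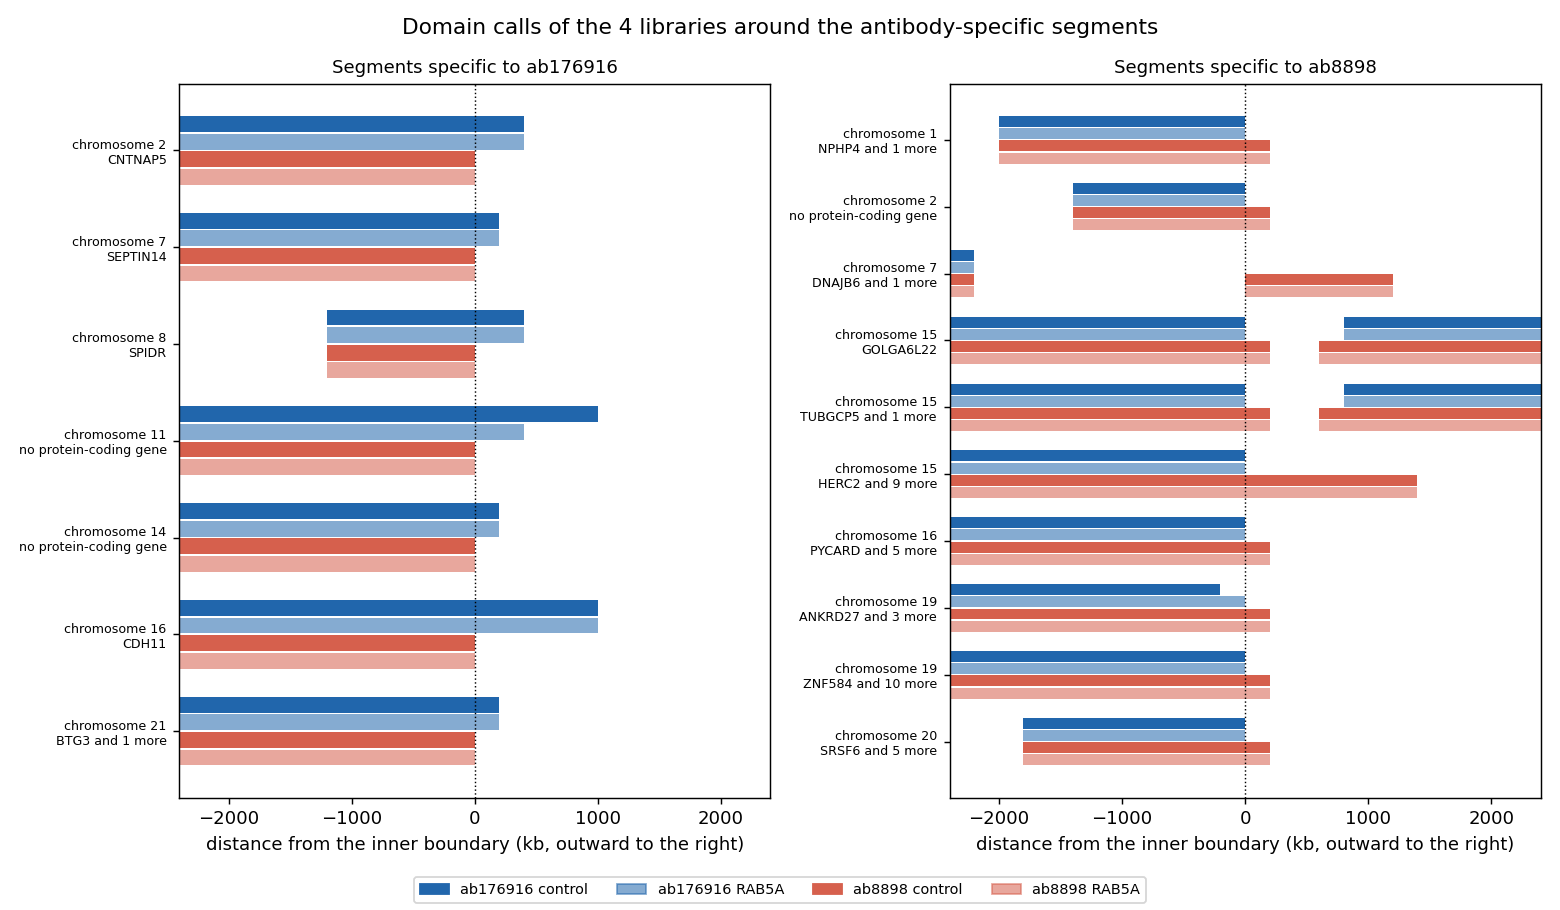
Calls of the 4 libraries around each segment specific to ab176916 (left) or ab8898 (right), by distance in kb from the segment's inner boundary, with outward to the right. The whole domain over PTPRN2 has no inner boundary, and its distance runs from its start up the chromosome. Bars are called sequence (blue ab176916, red ab8898, dark control, pale RAB5A) and each block is 1 segment, named by chromosome and its first protein-coding gene. At the segment, the libraries of an antibody end together in all blocks but chromosome 11 and the chromosome 19 block of ANKRD27, where the ab176916 libraries end at different places.

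The sequence of the segments was not used by the rule. Bins specific to ab176916 were 37.9% GC with 7.29 CpG per kb, and bins specific to ab8898 were 47.2% GC with 18.1 CpG per kb. Bins called in all 4 libraries, 41.3% GC and 10.5 CpG per kb, lay between them, close to all autosomal bins with sequence (41.0% and 10.1). Single segments ranged from 34.4 to 43.4% GC for ab176916 (median 37.7) and from 39.8 to 51.9% for ab8898 (median 46.5), so the ranges overlap. The overlap is due to the immunoglobulin segment, since the other 9 segments of ab8898 were at 44.2% or above. Against the next bin inside the domain, GC was higher at 5 and lower at 4 of the ab8898 edges. For the ab176916 edges these counts were 4 and 3. Against the next bin outside, GC was higher at 4 and lower at 5 of the ab8898 edges, and higher at 1 and lower at 6 of the ab176916 edges. The difference between the classes of bins was 9.29 points, and 5.68 points without domains scored under the lower quartile of their list. The second value includes domains that all 4 libraries had called, as given above. Protein-coding gene starts numbered 1.07 per Mb in bins specific to ab176916 and 10.2 in those specific to ab8898, against 4.47 in bins called in all 4 and 6.90 in all bins. Of the 43 starts in the ab8898 bins, 4 and 11 lay in the chromosome 19 segments, each 0.2 Mb long. No protein-coding gene overlapped 8 of the 14 bins of ab176916 and 1 of the 21 of ab8898, compared with 46.5% of bins called in all 4.

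**Figure D4:**
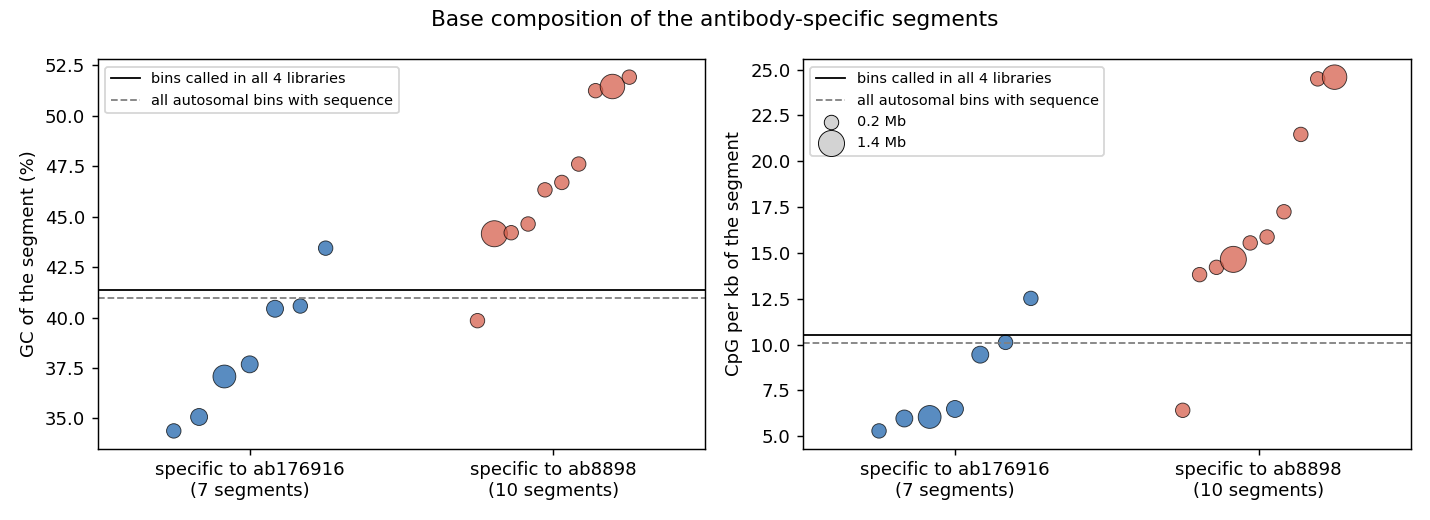
GC (%, left) and CpG per kb (right) of each antibody-specific segment, sorted within the antibody, with the area of the point growing with length. Lines give the value over bins called in all 4 libraries (solid) and over all autosomal bins with sequence (dashed), 41.3 and 41.0% GC. In GC, 9 of the 10 segments of ab8898 lie above both lines and 6 of the 7 of ab176916 lie below both.

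The same contrast was read in bins that told the antibodies apart in 1 treatment, leaving out the 35 bins above. In control, bins called with ab176916 and not ab8898 (54 bins) were 40.4% GC with 1.11 gene starts per Mb, and the converse (19 bins) 44.8% with 8.68. In RAB5A the values were 39.7% with 0.976 (41 bins) and 40.1% with 3.61 (18 bins). Gene starts per Mb were higher on the ab8898 side in both treatments, while the GC differed by 4.39 points in control and by 0.392 points in RAB5A. Bins without a protein-coding gene made up 64.8% on the ab176916 side and 31.6% on the ab8898 side in control, but 65.9% and 66.7% in RAB5A, where the median GC of a bin was 38.9% on both sides. By the share of gene-free bins and by median GC, the contrast was therefore seen in control and not in RAB5A. CpG per kb was higher on the ab8898 side in both treatments, 17.8 against 9.81 in control and 12.6 against 7.96 in RAB5A. These bins come from the same 4 lists as the antibody-specific bins and fall into 11, 10, 7 and 8 segments.

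Within the domains that all 4 libraries shared, edges were compared one by one. Of 74 loci, 60 had exactly 1 domain in each library, giving 120 edges. Between the antibodies 85 edges lay at the same position in both treatments, and 83 lay at the same position in all 4 libraries. A further 17 edges moved the same way in both treatments, 10 with ab8898 farther out and 7 with ab176916 farther out. Of the 17, 14 moved by the same distance in both treatments, and 10 of these by a single bin of 200 kb, the smallest step the lists can show. Another 16 edges differed in 1 treatment alone (10 in control, 6 in RAB5A) and 2 moved in opposite ways. Treatment moved 5 edges the same way with both antibodies. The end of the chromosome 21 domain that held BTG3 with ab176916 alone moved outward with ab8898 by 1200 kb in control and 600 kb in RAB5A. This end also moved outward in RAB5A cells with either antibody, so no bin there was specific to an antibody.

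**Figure D5:**
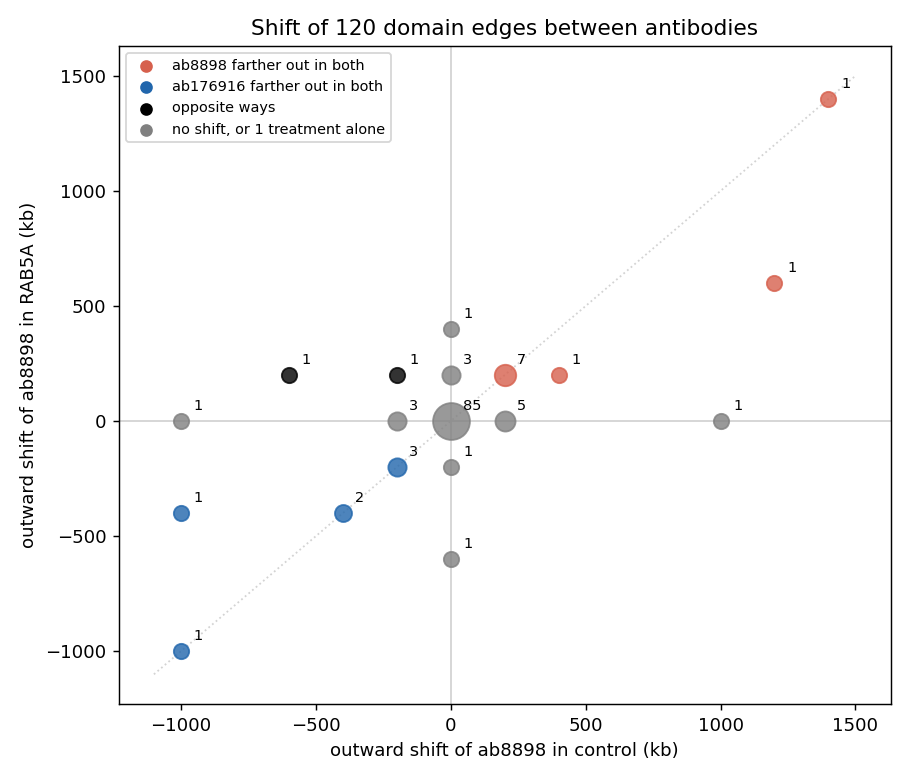
Outward shift of each domain edge with ab8898 relative to ab176916 (kb) in control (x axis) and RAB5A (y axis), for 120 edges. Points are positions in 200 kb steps, with the number of edges beside each and larger points for more edges. At the origin lie 85 edges, and the 10 red and 7 blue edges moved the same way in both treatments.

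Of the 14 other loci, 12 were missing from at least 1 library and 2 were split differently. Of the 12, 8 set a single library apart (3 called in 1 library, 5 missed by 1), 3 followed the treatment with both antibodies and 1 followed the antibody. The 3 that followed the treatment were chr5:6800001-8800000, which holds the adenylate cyclase gene ADCY2, and chr12:118400001-119600000, which holds the small heat shock protein gene HSPB8, both in RAB5A alone, and chr10:1000001-2800000, which holds ADARB2, in control alone. In control, ab176916 alone called 3 whole domains (7 Mb in all) and ab8898 alone 1. In RAB5A, ab176916 alone called 4 (7.2 Mb) and ab8898 alone 2 (2.8 Mb). Only the PTPRN2 domain was in both sets. Each of the 7 domains that ab176916 alone called in one treatment was either not called by its other library, as chr10:80600001-84200000 over NRG3, a neuregulin ligand of ERBB4, or was also called by the other ab8898 library, as chr15:45800001-48000000 over SEMA6D, a transmembrane semaphorin.

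The counts of the gene lists were nearly the same with both antibodies, though lists with few or no members called cannot tell the antibodies apart. Over all protein-coding genes, 845 (4.42%) overlapped a domain in both ab176916 libraries and 899 (4.7%) in both ab8898 libraries. Olfactory receptor genes numbered 113 of 414 in each library, and glutamate and GABA receptor genes 8 of 44 in each. Protocadherin genes counted 1 of 63 and ribosomal protein genes 2 of 81 in each library. None of 46 defensin, 55 keratin, 85 histone or 9 interferon response genes overlapped a domain in any library. Of 3 ADAR genes, 1 overlapped a domain in both control libraries and none in either RAB5A library. Only the zinc finger and cadherin lists held members in the specific bins, 5 with ab8898 and 1 with ab176916. Counting genes of all types, the ab176916 segments held 45, with 20 pseudogenes and 12 long non-coding RNA genes. The ab8898 segments held 171, with 50 pseudogenes, 44 long non-coding RNA genes and 8 microRNA genes.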

How the data were processed

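H3K9me3 ChIP-seq of MCF10.DCIS.com monolayers was analysed in 4 libraries, 2 per antibody. Per the submitters' processing notes and the study's methods, the authors trimmed reads with Trimmomatic 0.39, aligned them to hg38 with BWA 0.7.17-r1188, marked duplicates with Picard 2.22, dropped those of mapping quality under 1 with SAMtools 1.9 and called domains in each library with EDD (200 kb bins, gap penalty 25, required informative fraction 0.98, exclusion list). The deposited lists hold each domain's position and the authors' score, which has no stated unit and was used within a list only. They hold no read counts, and the study's methods give only an average depth over samples, so the depth and counting error of each library are unknown, and signal inside a domain or below its threshold cannot be seen.

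Python 3.11.15 with pandas 2.3.3 and NumPy 2.4.6 gave the bins, Jaccard index, edges and genes (GENCODE 44), and matplotlib 3.10.9 the figures. GC was taken over A, C, G and T of hg38. Exons are those of the canonical transcript. Gaps are runs of at least 50 kb without sequence. The functions were tested on simulated lists. Values of whole libraries were tested by swapping the antibodies within treatments in an exact two-sided permutation test (4 arrangements), or over all 6 labellings. Calls and composition were described without a test. Libraries were paired by treatment as labelled. All protein-coding genes of a segment are named, against a planned limit of 8. Gene lists were matched by symbol (for instance ZNF and a number), and the interferon response genes are IFI6, IFI27, IFI44, IFI44L, IFIT1, IFIT3, ISG15, MX2 and OASL, named in the study. The members and lists were chosen with earlier results of these data known. Repeat share and distance to centromeres were planned and not computed, as the genome used carries neither. Alternatives were a score filter, merging, a 1 Mb minimum, no block, each library left out, chromosome 19 left out, and other definitions of genes, whole domains and edges. Chromosome 15 left out, single-bin segments and the GC and gene comparisons were added after seeing the data.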

Additional observations from a re-analysis of the deposited data

Results flagged for a closer look

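At 2 of the 120 edges the antibodies differed in opposite ways in the treatments, and this difference was not tested. On chromosome 2, the start of the domain near 76 Mb lay 600 kb farther in with ab8898 in control (a shift of -600 kb) and 200 kb farther out in RAB5A. On chromosome 9, the start near 7.6 Mb lay 200 kb farther in with ab8898 in control (-200 kb) and 200 kb farther out in RAB5A. At 200 kb the shift is a single bin, the resolution of the calls. Groups of 2 libraries are too small to judge a single library as an outlier.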

How the results depend on the processing

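Of 114 values recomputed for 13 results, 85 were counted as unchanged and 29 were not, 16 of them with a library left out. For covered length, number and mean length of domains, GC of called sequence and gene number, only the direction was checked. A covered length of -0.6 against -4.4 Mb was thus counted as unchanged. The other results had to stay close in size. The 85 include settings that could not change a value, namely the 1 Mb minimum and the values without the treatment block. They also include the values with a library left out for the results checked by direction alone. Those repeat the difference in a single treatment and were bound to count as unchanged. Without domains scored under the lower quartile of their list, the difference in the number of domains (ab8898 minus ab176916) reversed to 0.5 and that in mean length to -0.0427 Mb, and the Jaccard contrast was -0.0119. The same filter gave 22 bins specific to ab176916 with 11 protein-coding genes, 2 whole domains that did not include the PTPRN2 domain, and a GC difference between the specific bins of 5.68 points. Of the 14 and 21 specific bins, 12 and 14 remained specific under it.

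With each library left out in turn, fewer calls define a specific bin, so counts grew by construction. Bins specific to ab176916 numbered 30 to 45 with 8 to 16 genes, lowest without its control library and highest without the ab8898 RAB5A library. Bins specific to ab8898 numbered 26 to 35 with 45 to 67 genes, whole domains 2 to 4, and the GC difference was 5.74 to 8.00 points. The PTPRN2 domain was specific each time, but so was every bin specific with all 4 libraries, since leaving out a library only removes a condition. This is therefore no check of that domain. For covered length (-3.2 or -5.6 Mb) and gene number (41 or 56), leaving out a library gave back the difference in the other treatment. Their directions could therefore not change.

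Leaving out chromosome 19 gave 29 genes in bins specific to ab8898, and leaving out chromosome 15 gave 12 such bins. Gene starts alone gave 3 genes for ab176916, and genes of all types numbered 45 and 171. Edges that moved the same way by 400 kb or more numbered 6. Without the treatment block, the exact permutation p was 0.333, the smallest of 6 labellings. The 1 Mb minimum removed no domain. The cause of these changes was not tested.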
